A study of Mus musculus with 2 samples.

Results

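Titin (Ttn), nebulin (Neb), obscurin-like 1 (Obsl1), the myomesins Myom1, Myom2 and Myom3, and the myosin-binding proteins Mybpc1, Mybpc2 and Mybph were followed in skeletal muscle of newborn mice. They were chosen by symbol as the giant, M-band and C-zone genes of the sarcomere and are 9 of the 43346 genes in the gene tables, with 69 annotated transcripts. The study holds 1 group of 2 libraries, biological replicates 1 and 2, each made by a SmartSeq protocol (amplification of full-length cDNA) from 13 pg of total RNA, an amount its labels call 1 cell-equivalent. The labels name the strain B6NCrl and no allele or treatment. Each library used a portion of 1 organ of 1 pup at age 0 days, with spike-in RNAs added and sex not collected. Both libraries have their own tissue record but the same donor entry, so the spread between them can hold animal, tissue and library differences that cannot be told apart. In such tissue RNA, fewer cells of a type and less RNA per cell cannot be told apart either.

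Titin spans from the Z-disc to the M-band at the middle of the sarcomere and acts as its molecular spring, while nebulin runs along the thin filament. Myomesins tie thick filaments and titin together in the M-band, and obscurin-like 1 links titin to myomesin there. Myosin-binding proteins C and H sit in stripes on the thick filament, the C-zone, where they bind myosin and modulate contraction. Titin, nebulin and the myomesins are heavily spliced, and the isoforms differ between developing and adult and between cardiac and skeletal muscle.

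Stretches of the transcripts discussed below are given first, from GRCm38 (the assembly also called mm10), 5′ to 3′ on the strand of the gene. Those of Myom1, Mybpc1 and Ttn tell transcripts apart, while that of Neb is shared by Neb-204 and Neb-202. In Myom1, on the plus strand, the capitals mark a coding exon of 294 bases at chr17:71082203-71082496 that Myom1-202 holds and Myom1-201 and Myom1-203 lack. An exon of this kind in the middle of the coding sequence is known to make the EH form of myomesin, typical of the embryonic heart.
Myom1-202 exon: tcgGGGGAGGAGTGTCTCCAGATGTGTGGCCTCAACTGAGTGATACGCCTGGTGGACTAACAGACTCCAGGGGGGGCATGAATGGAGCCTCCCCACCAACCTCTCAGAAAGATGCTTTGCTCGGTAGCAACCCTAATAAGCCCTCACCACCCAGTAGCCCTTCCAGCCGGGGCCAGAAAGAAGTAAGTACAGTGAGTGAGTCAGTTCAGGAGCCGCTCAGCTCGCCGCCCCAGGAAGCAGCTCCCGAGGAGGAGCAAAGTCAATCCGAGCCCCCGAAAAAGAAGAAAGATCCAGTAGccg
In Mybpc1, on the minus strand, the capitals mark a coding exon of 42 bases at chr10:88582007-88582048 that Mybpc1-202 holds and Mybpc1-201 lacks.
Mybpc1-202 exon: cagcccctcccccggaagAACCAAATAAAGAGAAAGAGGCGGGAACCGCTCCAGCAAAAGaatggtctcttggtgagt
In Ttn, on the minus strand, the capitals are the first 90 bases of the last exon of Ttn-202, 6520 bases at chr2:76913944-76920463, which the long transcripts Ttn-201, Ttn-203 and Ttn-205 lack. Short titin that ends in an exon of its own in the I-band part of the gene is known as novex-3.
Ttn-202 last exon: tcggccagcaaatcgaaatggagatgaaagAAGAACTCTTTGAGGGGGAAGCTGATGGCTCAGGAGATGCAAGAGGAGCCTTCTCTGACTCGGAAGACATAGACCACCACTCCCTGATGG
In Neb, on the minus strand, the capitals mark the start codon of the full-length Neb-202, as it lies in the 1000-base transcript Neb-204, with the coding bases that follow it over exons between chr2:52328757-52334481.
Neb-204 coding start: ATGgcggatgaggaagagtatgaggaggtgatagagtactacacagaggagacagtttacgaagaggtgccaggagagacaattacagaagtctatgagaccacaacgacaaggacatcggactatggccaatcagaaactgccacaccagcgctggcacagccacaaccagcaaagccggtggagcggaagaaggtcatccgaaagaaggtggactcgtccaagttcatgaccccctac

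The libraries held 32103374 and 38977618 expected counts (the estimated reads per gene), and spike-ins took 9.44% of all TPM in replicate 1 and 4.54% in replicate 2. TPM is a level per transcript length scaled to a fixed total. All 9 fixed markers of skeletal muscle fibres were detected in both libraries, with a summed TPM of 143060 and 159475. Of 7 heart markers only Myl2, which slow skeletal fibres also express, was detected (223 and 338 TPM), and Mybpc3, Tnni3, Nppa and Nkx2-5 were at 0. The 5 fibroblast markers summed to 6182 and 3705 TPM. The 4 smooth muscle markers summed to 375 and 647 TPM, with Myh11 and Cnn1 at 0 in replicate 1. The part of these other cells in the values below was not tested.

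By the deposited TPM, Neb, Mybpc1 and Ttn had the highest levels of the 9 genes and the myomesins lay well below them. Obsl1 and Myom3 were detected in replicate 1 only. A gene was taken as detected from 1 TPM and 5 expected counts upward. All 9 genes passed in replicate 1 and 7 in replicate 2, and the same 7 passed in both, against 10.05% of all 43346 genes. Summed over the 9 genes the level was 4901 TPM in replicate 1 and 6000 TPM in replicate 2 (5450 ± 777, SD, n = 2), or 0.490% and 0.600% of all TPM. Their share of gene counts was higher, 1.53% and 2.13%. In order of mean TPM the genes were Neb, Mybpc1, Ttn, Mybph, Mybpc2, Myom2, Myom1, Obsl1 and Myom3. Neighbours whose values overlapped were Neb and Mybpc1, Mybpc2 and Myom2, Myom2 and Myom1, and Obsl1 and Myom3. Each of the other 4 steps in the order separated both libraries of one gene from both of the next.

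**Figure D1:**
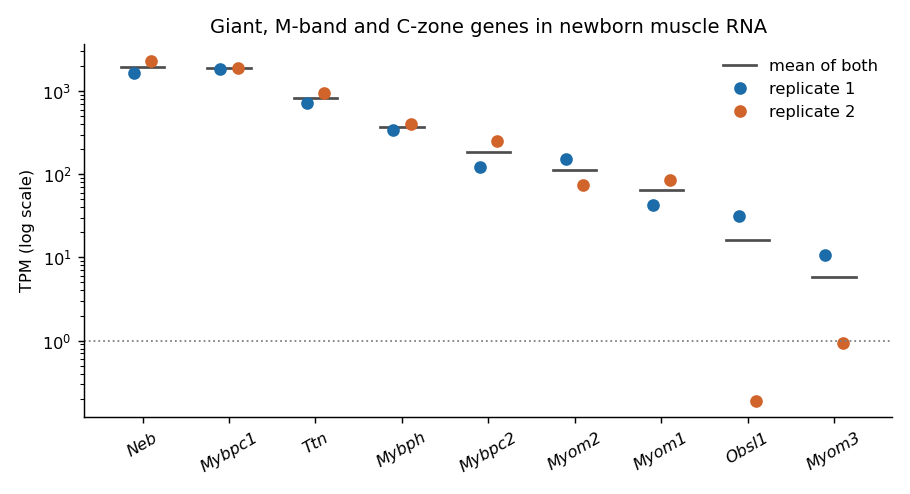
Level of each of the 9 genes in TPM (vertical log axis), 1 point per library and a bar at the mean, with a dotted line at 1 TPM. Neb, Mybpc1 and Ttn lie highest in both libraries, while Obsl1 (31.8 and 0.19 TPM) and Myom3 (10.8 and 0.94 TPM) show the widest gaps between the libraries.

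Ttn (chr2:76703980-76982547, minus strand, GRCm38) had 191659 expected counts in replicate 1 and 382803 in replicate 2. These made it the gene with the 14th and the 6th highest count of the library, and 0.630% and 1.01% of all gene counts. Its TPM was 715 and 959 (837 ± 173, SD, n = 2), which placed it at rank 182 and 126. The libraries differed by 1.34-fold, with replicate 2 higher. The gene with the longest transcripts of the 9, up to 106824 bases, was thus nearer the top by reads than by level per length.

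Neb (chr2:52136647-52378474, minus strand) had 95558 and 168459 expected counts, at rank 39 and 27. Its TPM was 1648 and 2305 (1976 ± 465, SD, n = 2), at rank 63 and 47, and the libraries differed by 1.40-fold. Neb lay above Ttn in both libraries, by 1.23 ± 0.04 on the log2(TPM + 1) scale (SD, n = 2), a difference larger than 2 SD. By expected counts the order was the opposite, with Ttn above Neb in both libraries.

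These levels rested on the transcript length that the deposited tables used for each gene, which is a mean over its transcripts weighted by their estimated levels. For Ttn that length was 11089 bases in replicate 1 and 12877 in replicate 2, and for Neb 2476 and 2438 bases, although its longest transcript has 22489. The longest transcript was 9.50 times the length used for Neb and 8.98 times that for Ttn. Among the 4356 genes detected in both libraries the median of this ratio was 1.06, and only 17 genes (0.390%) had a ratio at or above that of Neb and 21 (0.482%) at or above that of Ttn. The ratio was 2.95 for Obsl1, 1.28 for Mybpc1 and for Mybph, 1.14 for Myom3, 1.05 for Myom1, 1.02 for Myom2 and 1.00 for Mybpc2, which has 1 transcript. The 2 giants were therefore the genes of the list whose level moved most with the length chosen.

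TPM was recomputed for all genes with the longest transcript of each gene. Ttn then had 87.0 and 139 TPM (113 ± 36.6, SD, n = 2), 7.41-fold lower by the means. Neb had 207 and 291 TPM (249 ± 59.6, SD, n = 2), 7.94-fold lower. On this scale Mybpc1, at 1638 and 1869 TPM, lay above both giants in both libraries. Mybph did so too, at 315 and 379 TPM. Mybpc2, at 144 and 304 TPM, lay above Ttn in both libraries. Myom2, at 171 and 90.7 TPM, lay above Ttn in replicate 1 only. Neb still exceeded Ttn, by 1.15 ± 0.12 on the log2 scale (SD, n = 2). The order among the giants did not turn with the length, whereas their place among the other 7 genes did.

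**Figure D2:**
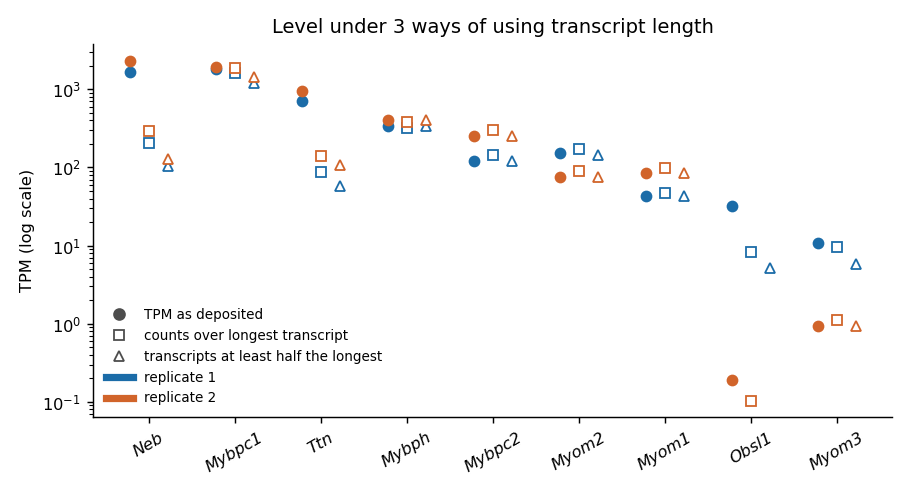
TPM of each gene in each library (vertical log axis) as deposited (filled circles), recomputed with the longest transcript (squares) and summed over transcripts of at least 50% of the longest (triangles; Obsl1 in replicate 2 is at 0 and not drawn). By the means Ttn moves from 837 to 113 and 82.7 and Neb from 1976 to 249 and 115, while Mybpc1 moves from 1879 to 1753 and 1318.

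The short length used for Ttn came from short annotated transcripts with high TPM. Reads were assigned to 19 of its 25 transcripts in replicate 1 and 20 in replicate 2, 17 of them in both. The transcript with the highest TPM was Ttn-215, with 21.6% of the gene's TPM in replicate 1 and 41.6% in replicate 2. It has 2159 bases and lies within the first 1.93% of the longest transcript, at the end that encodes the Z-disc part of titin. Its share of the gene's counts was 4.05% and 6.71%. Ttn-213 (3406 bases) had 16.9% and 12.4% of the TPM, Ttn-208 (549 bases) 11.6% and 13.3%, and Ttn-221 (459 bases) 16.7% and 1.34%. These 3 lie close together, between 27.2% and 32.6% of the longest transcript. Ttn-202, the short form whose last exon is shown above, had 10.4% of the TPM in replicate 1 and 3.22% in replicate 2, and 15.9% and 4.23% of the counts.

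By counts the long transcripts led. Ttn-205 (101674 bases) had 42.7% and 41.8% of the gene's counts but 4.62% and 5.26% of its TPM. Ttn-201 (81843 bases) had 17.7% and 28.3% of the counts, and Ttn-203, the longest, had 11.4% and 11.9%. Transcripts of at least 50% of the longest length together held 72.0% and 82.3% of the counts and 8.20% and 11.1% of the TPM. Their own summed level was 58.6 and 107 TPM (82.7 ± 34.1, SD, n = 2). Most Ttn reads were thus assigned to full-length-like transcripts, and most of its TPM to short ones.

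Read density, the expected counts per base of effective length, is the TPM before scaling. Its ratios within a library therefore restate those of the TPM and are no further evidence. Ttn-215 had 3.76 expected counts per base of effective length in replicate 1 and 12.5 in replicate 2. The 4 long transcripts together had 1.43 and 3.34, so that Ttn-215 was 2.63 and 3.73 times as dense. For Ttn-213 this ratio was 2.06 and 1.11, for Ttn-208 1.42 and 1.20, for Ttn-221 2.04 and 0.120, and for Ttn-202 1.27 and 0.289. These 5 transcripts were picked for at least 10% of the gene's TPM in either library, and each held that in replicate 1. The long transcripts together held 8.20% there, so the choice itself made all 5 denser in replicate 1. In replicate 2 Ttn-215, Ttn-213 and Ttn-208 were denser than the long transcripts, and Ttn-221 and Ttn-202 were not. The files give estimates per transcript, not coverage per base, so where bases are shared the split between transcripts is that of the estimation.

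In Neb, 1 short transcript held most of the level. Neb-204, the 1000-base transcript whose coding start is shown above, had 1340 and 1889 TPM, or 81.4% and 81.9% of the gene's TPM. Its share of the counts was 30.8% and 31.6%. Of its 1000 bases 918 are also in Neb-202, at bases 309 to 1226 of that transcript, and they hold 807 coding bases. Its 10 exons begin with 82 bases of its own at chr2:52335681-52335762, and the annotation calls it a processed transcript, not a coding one. Neb-204 had 32.7 and 59.0 expected counts per base, 13.0 and 14.8 times the summed density of the long transcripts Neb-202 and Neb-203. These ratios again restate those of the TPM.

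The full-length transcripts of Neb split their reads differently in the libraries. Neb-203 (21456 bases) had 42.6% of the gene's counts in replicate 1 and 14.7% in replicate 2, and Neb-202 (22489 bases) had 14.1% and 37.6%. Together the long transcripts held 56.7% and 52.3% of the counts, 6.24% and 5.53% of the TPM, and a summed 103 and 128 TPM (115 ± 17.5, SD, n = 2). The sum over both thus varied less between libraries than either transcript. On long transcripts alone Neb exceeded Ttn by 0.53 ± 0.39 on the log2 scale (SD, n = 2), which is within 2 SD.

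**Figure D3:**
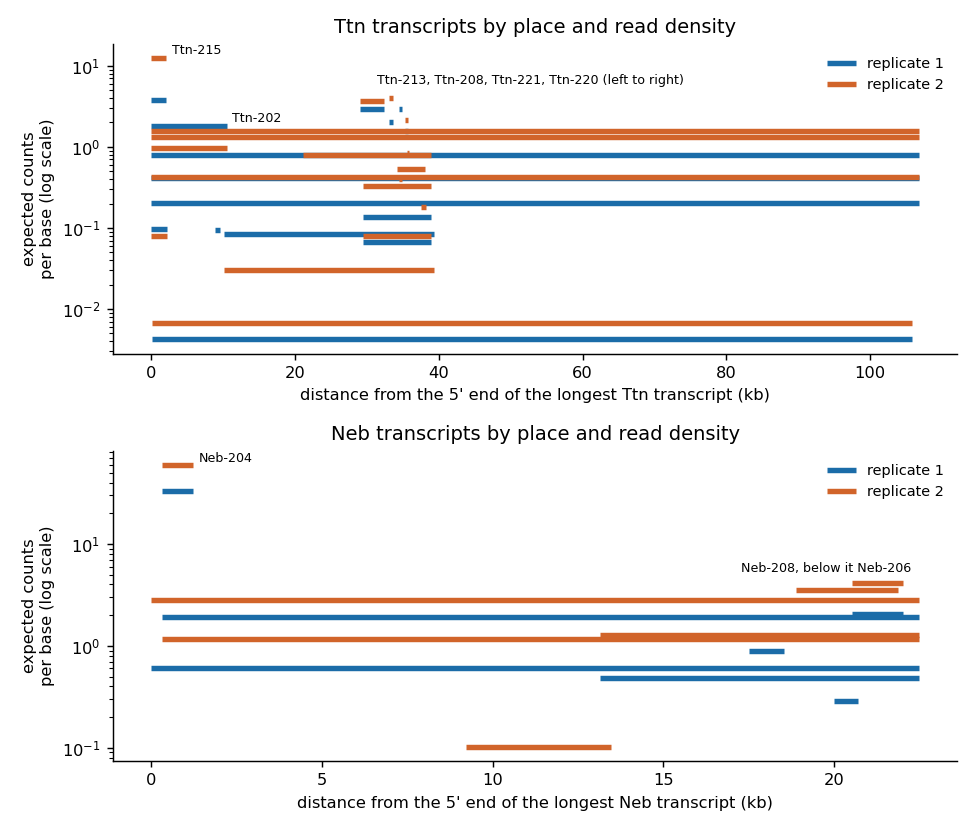
Expected counts per base (vertical log axis) of the Ttn and Neb transcripts with at least 100 counts in a library, each drawn as a bar over the stretch it spans of the gene's longest transcript (horizontal axis, kb from the 5′ end). Ttn-215 and Neb-204, both near the 5′ end, lie highest, and the full-length bars lie lower. Within a library this density is proportional to TPM and is not coverage per base.

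**Figure D4:**
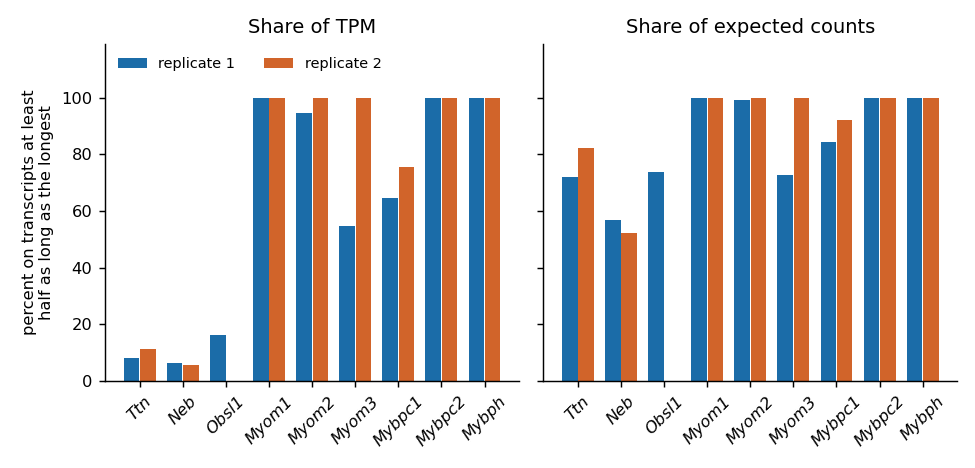
Percent of each gene's TPM and of its expected counts that fell on transcripts of at least 50% of the longest transcript, 1 bar per library. Ttn (8.20% and 11.1% of TPM) and Neb (6.24% and 5.53%) stand low on TPM but above 50% on counts, while Myom1, Mybpc2 and Mybph are at 100% on both.

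Among the M-band genes, Myom1 and Myom2 were detected in both libraries and took the lead in different ones. Myom1 (chr17:71002633-71126856, plus strand), the myomesin found in all striated muscle, had 42.5 TPM in replicate 1 and 85.4 in replicate 2 (63.9 ± 30.3, SD, n = 2), from 5404 and 14015 expected counts. Myom2 (chr8:15057653-15133541, plus strand), which encodes M-protein, typical of fast fibres, had 152 and 75.0 TPM (114 ± 54.4, SD, n = 2), from 17566 and 11664 counts. Myom1 was thus 2.01-fold higher in replicate 2 and Myom2 2.03-fold higher in replicate 1. On the log2(TPM + 1) scale Myom2 minus Myom1 was 1.81 in replicate 1 and -0.18 in replicate 2 (0.82 ± 1.41, SD, n = 2), so the 2 genes could not be put in order.

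Myom3 (chr4:135759715-135815564, plus strand), the myomesin typical of fibres of intermediate speed, had the lowest mean of the 9, although Obsl1 was lower in replicate 2. It had 10.8 TPM in replicate 1 and 0.94 in replicate 2 (5.86 ± 6.95, SD, n = 2). The counts were 1079 and 160, the latter with an exact Poisson 95% interval of 136 to 187, which covers counting error only. The difference of 11.5-fold in TPM was therefore larger than counting error, and 0.94 lay just under the detection limit. As shares of the summed myomesin TPM, Myom1 took 20.7% and 52.9%, Myom2 74.0% and 46.5%, and Myom3 5.25% and 0.583%. Myom3 was the smallest share in both libraries, by -3.68 ± 2.54 against Myom1 on the log2 scale (SD, n = 2), within 2 SD.

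**Figure D5:**
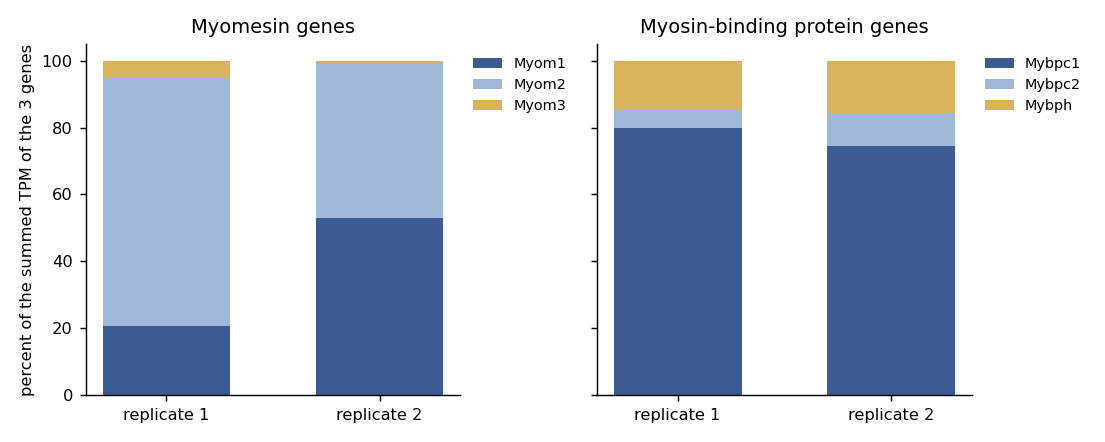
Percent of the summed TPM of the 3 myomesin genes (left) and of the 3 myosin-binding protein genes (right) in each library, as stacked bars from 0. Myom1 changes from 20.7% to 52.9% between the libraries, whereas Mybpc1 holds 79.8% and 74.6%.

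The myomesins were read mostly as full-length transcripts. All Myom1 counts of replicate 1 fell on Myom1-203, which lacks the exon of 294 bases. In replicate 2 Myom1-203 held 81.2% of the gene's TPM, Myom1-202, with that exon, 15.0% from 2201 counts, and Myom1-201 3.81%. The estimate for the form with the exon was thus 0 in 1 library and above 0 in the other, and whether reads crossed the exon in replicate 1 is not given in the tables. Myom2-201 held 93.5% and 100% of the Myom2 TPM to 3 digits. For Myom3, Myom3-201 held 54.7% in replicate 1 and 100% in replicate 2, and the retained-intron transcript Myom3-203 (2551 bases) held 45.4% and 0%.

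Obsl1 (chr1:75479310-75506452, minus strand) had 31.8 TPM in replicate 1 and 0.19 in replicate 2 (16.0 ± 22.3, SD, n = 2), the widest gap of the 9 genes. Its counts were 949, with an exact Poisson 95% interval of 890 to 1011, and 15, with an interval of 8.40 to 24.7. The gap was 4.78 on the log2(TPM + 1) scale and larger than the counting error of the reads, which leaves out the spread from amplification. No Obsl1 transcript had reads in both libraries. In replicate 1, 5 of the 13 transcripts had reads. The retained-intron transcript Obsl1-213 (440 bases) led by TPM with 66.9% from 177 counts, and Obsl1-212 had 16.2%. Obsl1-202 (5679 bases) had 16.1% of the TPM but 73.5% of the counts. In replicate 2 the leading transcript was Obsl1-207, and no read was assigned to a transcript of at least 50% of the longest. Against Ttn, Obsl1 lay at -7.05 ± 3.68 on the log2 scale (SD, n = 2), below it in both libraries but within 2 SD.

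The C-zone genes kept their order by TPM in both libraries, Mybpc1 above Mybph above Mybpc2. By expected counts Mybpc2 passed Mybph in replicate 2, with 11.8% against 9.30% of the counts of the 3 genes, while in replicate 1 it had 6.81% against 9.38%. Mybpc1 (chr10:88518279-88605152, minus strand), the slow-type myosin-binding protein C, had 1838 and 1920 TPM (1879 ± 58.3, SD, n = 2), from 129228 and 184591 counts. It differed by 1.04-fold, the smallest difference of the 9 genes. Mybph (chr1:134193448-134201232, plus strand), myosin-binding protein H, had 342 and 403 TPM (372 ± 42.7, SD, n = 2), a 1.18-fold difference. Mybpc2 (chr7:44501699-44524656, minus strand), the fast-type protein, had 122 and 252 TPM (187 ± 91.6, SD, n = 2), a 2.06-fold difference with replicate 2 higher. On the log2 scale Mybph lay at -2.34 ± 0.12 and Mybpc2 at -3.41 ± 0.69 relative to Mybpc1 (SD, n = 2), both beyond 2 SD. Mybpc1 held 79.8% and 74.6% of the summed TPM of the 3 genes, Mybph 14.9% and 15.6%, and Mybpc2 5.30% and 9.77%. Mybpc3, the cardiac gene of the family, had 0 counts in both libraries, where a count of 0 allows up to 3.

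Mybpc1 was the C-zone gene with several transcripts in use. Mybpc1-202, which holds the exon of 42 bases shown above, led with 39.3% and 50.2% of the gene's TPM. Mybpc1-201, without it, had 25.3% and 25.2%. Mybpc1-206 (1876 bases) had 16.9% and 8.56%, and the 600-base retained-intron transcript Mybpc1-203 had 9.37% and 14.2%. Transcripts of at least 50% of the longest held 84.2% and 92.3% of the counts. Mybph-201 held 99.6% and 99.7% of the Mybph TPM, and Mybpc2 has a single transcript. Over all 9 genes the transcript with the highest TPM was the same in both libraries for 8, the exception being Obsl1. Mybpc2, with 1 transcript, could not differ. Ranked by expected count, or on protein-coding transcripts only, the number was 7, since the leading Neb transcript then differed too. The same share over all genes was not computed.

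Of the 9 genes 4 differed by more than 2-fold between the libraries on the log2(TPM + 1) scale, against 71.6% of the 8943 genes detected in at least 1 library. Obsl1, Myom3 and Myom2 were higher in replicate 1, and Mybpc2 in replicate 2. Among the 7 genes detected in both libraries 2 passed, Myom2 and Mybpc2, against 44.7% of all 4356 such genes. Myom1 lay just inside the limit, at -0.99. In all, 3 of the 9 genes were higher in replicate 1 and 6 in replicate 2, with a median of -0.23 (replicate 1 minus replicate 2) against -0.13 over the genes detected in at least 1 library. For the 7 detected in both the median was -0.42, against 0.07 over all such genes. The median size of the difference was 0.99 for the 9 genes against 2.12 over genes detected in at least 1 library, and 0.48 for the 7 against 0.88 over genes detected in both. The shares of 71.6% and 44.7% are not matched for depth. Of the 9 genes 6 had a mean of at least 10000 counts, and 2 of these 6, Myom2 and Mybpc2, passed 2-fold. Over all 454 genes detected in both libraries at that depth, the median size of the difference was 0.52 and 21.6% passed 2-fold. For the 25 spike-ins that reached 10 counts in each library the median was 0.98 (SD 0.91, range -1.96 to 2.30), and with the ratios centred on them 8 of the 9 genes passed, against 74.8% of genes detected in at least 1 library.

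Length and the spread between libraries were weakly related across all genes. By effective length, the share of genes detected in both libraries among those detected in at least 1 was 60.2% under 500 bases (394 of 654 genes), 57.9% up to 1000, 47.6% up to 2000, 45.2% up to 4000, 43.6% up to 8000 and 44.1% above (64 of 145 genes). The median size of the log2 difference was 0.68 in the shortest class, 0.78, 0.84, 1.00 and 1.04 in the next ones, and 0.89 in the longest. Ttn, alone of the 9 in the longest class, differed by 0.42, less than the median of its class. Its mean of 837 TPM lay far above that class's median level of 12.1, so the 2 are not matched for level. Over the genes with a mean of at least 10000 counts the median difference was 0.52. The myomesins, in the class from 4000 to 8000 bases, differed by 0.99, 1.01 and 2.60. Across the 4356 genes Spearman's rho was 0.126 between length and the size of the difference and -0.363 between length and mean TPM. TPM is itself divided by length, so the latter is partly built in. The classes also differ in level, with a median of 74.0 TPM in the shortest and 12.1 in the longest among genes detected in both libraries. These are descriptions, since genes of 1 library pair share depth and amplification and are not independent.

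A list of 32 partners and relatives of these proteins, called partners below, was set beside them. Of these 22 were detected in both libraries, 5 in 1 and 5 in neither, against 10.05% of all genes in both. Ckm, the muscle creatine kinase that also binds the M-band, was highest at 13983 ± 1904 TPM (SD, n = 2), followed by the LIM protein gene Fhl1 at 2990 ± 1077 and Actn2, the α-actinin of the Z-disc, at 1869 ± 65.5. Smpx had 590 ± 139 TPM and Tcap, which caps titin in the Z-disc, 441 ± 54.0. Actn2 thus lay close to Mybpc1 in level. Of the 27 partners detected in at least 1 library 11 differed by more than 2-fold, 5 higher in replicate 1 and 6 in replicate 2, with a median of -0.25, against 71.6% of all genes detected in at least 1 library and their median of -0.13.

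The partners detected in 1 library only included genes of the titin and thin filament neighbourhood. Trim55, a ubiquitin ligase that binds the M-band part of titin, had 0 and 93.8 TPM. Lmod3, a leiomodin of the thin filament, had 0 and 70.1 TPM, and Lrrc39, an M-band protein that binds myosin, 0.84 and 54.2. The ankyrin-repeat gene Ankrd1, whose protein binds titin in the I-band, had 0.05 and 3.32 TPM, and its relative Ankrd23 had 41.7 and 0. Trim55, Lmod3, Lrrc39 and Ankrd1 passed the detection limit in replicate 2 only and Ankrd23 in replicate 1 only. How all genes detected in 1 library split between the libraries is not given here, so no lean of the partners can be read from this. Lrrc39 and Ankrd1 were not at 0 in replicate 1, with 61.4 and 2 expected counts. Of all genes, 8943 were detected in at least 1 library and only 4356 of them in both. Nebl, Mybphl, Mybpc3, Fhl2 and Ccdc8 were detected in neither library.

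By the distance of log2(TPM + 1) over the 2 libraries, genes near in level to Ttn among those detected in both were Sdhb (distance 0.07) and Des (0.07), the muscle intermediate filament gene desmin with 752 and 955 TPM. Nearest to Neb were mt-Nd4 (0.20), Mybpc1 (0.31) and Ftl1 (0.32). With 2 libraries such nearness describes the level and says little else. Other annotated genes lie over some of the 9. Whether strand was used in counting is not given in the sources used here, so reads of overlapping genes may not be told apart. Only Myl12a, on the opposite strand over Myom1 (17594 and 30130 counts), and Adora1, over Mybph (36.7 and 102 counts), had counts above 0. The annotated Myom1 gene begins at chr17:71002633, but its 3 counted transcripts begin at chr17:71019521 or later. Whether Myl12a reaches their exons was not tested.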

How the data were processed

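Both libraries are of 1 group, so values are given per library with mean ± SD (n = 2) and no p-value. The SD may hold technical spread. Per the file headers, the deposited tables have the layout of RSEM, with 1 row per gene or transcript. Per the labels, reads were assigned to mm10 with GENCODE M4. Strand use, the aligner and its version were not given in the sources used here. The authors deposited expected counts, with fractions where reads were shared, and did not normalize them. The deposited TPM values are scaled by the authors to a fixed sum per library, spike-ins included. The FPKM and percent columns (share of a gene by transcript) that the authors deposited were not used for results, and shares were recomputed. Effective length was the length minus 99. There are no molecular identifiers, so intervals cover counting error only.

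GENCODE M21 on GRCm38, matched by identifier, gave symbols, transcript names and coordinates. This named 42462 genes and left 884 without a symbol. Of the 69 transcripts 66 had the same length in both annotations, the exceptions being Mybpc2-201, Myom1-202 and Myom1-203. Differences between libraries are log2(TPM + 1), replicate 1 minus replicate 2. A ratio of 2 genes was beyond 2 SD where both libraries had the same sign and the mean was more than 2 SD from 0. All 9 genes are named, with their transcripts of at least 10% of the gene's TPM in either library. Of the partners, the 5 highest and those detected in 1 library are named, and for Ttn and Neb the 3 nearest genes, of which 1 is not reported here. Other transcripts were named after their values were seen. The members and lists were chosen with earlier results of these data known. Alternatives were the posterior mean TPM, the longest transcript, no spike-ins, count shares, other thresholds and pseudocounts, other centring, and leaving out each library. Calculations used Python 3.11.15, numpy 2.4.6, pandas 2.3.3, scipy 1.17.1 and matplotlib 3.10.9, and R 4.3.3 with edgeR 4.0.16 for TMM factors only, on counts rounded to whole numbers. The scripts were tested on simulated data.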

Additional observations from a re-analysis of the deposited data

How the results depend on the processing

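Of 140 alternative values over 24 results, 110 were labelled the same, which for a level or share meant within the SD of the main value. With 2 libraries, a level or share without 1 of them always lies within that SD. Shares without spike-ins cannot change either. These values could not have been labelled otherwise, so the 110 is not a measure of robustness. With the longest transcript of each gene the summed level was 2901 TPM, Ttn 113 and Neb 249. Without length adjustment they were 17670, 7896 and 3649 on the scale on which all counts of a library sum as TPM does, a change of unit, and the Mybpc1 share of its family 81.3%. On transcripts of at least 50% of the longest, an alternative chosen after seeing the data, the summed level was 2254 TPM, Ttn 82.7, Neb 115 and the Mybpc1 share 70.4%. Neb over Ttn was then 0.53 (log2), no longer beyond 2 SD, Myom3 over Myom1 was -4.07 and Obsl1 over Ttn -5.02, both now beyond 2 SD. Obsl1 over Ttn also passed with the posterior mean TPM, at -6.76. The median log2 ratio of the 9 genes was -0.24 with the posterior mean, -0.26 with the longest transcript, -0.31 centred on the median gene and -1.22 centred on the spike-ins, where 8 genes passed 2-fold against 74.8% of all genes. Myom2 over Myom1 turned from 1.81 in replicate 1 to -0.18 without replicate 1, as each value is that of 1 library. Where a length or unit was not itself what changed, the cause was not tested. With no molecular identifiers, depth does not bound the error of the amplified values.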
